A study of Drosophila melanogaster with 28 samples.

Results

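HMR peaks were examined at the nuclear tRNA genes of Drosophila melanogaster, taken as every gene of the dm6 annotation whose symbol begins with tRNA: and whose biotype is tRNA, without mitochondrial genes and pseudogenes. The annotation held 290 such genes among 18277 genes of the assembled chromosomes (transposable elements not counted), with 41 on 2L, 98 on 2R, 48 on 3L, 79 on 3R, 24 on X and none on 4 or Y. They were 71 to 186 bp long, with a median of 73 bp. A tRNA gene is described as called in a list when at least 1 peak of that list lay on it or within 500 bp of it.

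The study expressed FLAG-HA-tagged Hmr in SL2 cells, an embryonic Drosophila cell line, and mapped the protein by ChIP-Seq. One set of stable lines carried full-length HMR (HMRwt-tg) and the other a protein that lacks the C-terminus (HMRdC-tg). Both transgenes stood behind the copper-inducible pMT promoter, were induced with 250 uM CuSO4 and, by the study's methods, were expressed together with wild-type LHR, the partner protein of HMR. The cells also kept their own HMR, so that anti-FLAG recovered only the transgenic protein, whereas anti-HMR (2C10) was used for total HMR. Anti-FLAG gave 5 peak lists for each construct and anti-HMR gave 4 lists for each, and each anti-HMR library had an anti-FLAG library from the same chromatin. Nothing in the labels says how many independent transfections the libraries represent, so p-values measure the spread between these libraries.

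tRNA genes are short genes transcribed by RNA polymerase III from a promoter that lies inside the gene. Its A box and B box are bound by TFIIIC, which brings in TFIIIB and the polymerase. In yeast and mammals, tRNA genes are also known to act as chromatin boundaries. HMR is a hybrid incompatibility protein that binds near HP1a-rich pericentromeric chromatin and, on the chromosome arms, at sites shared with insulator proteins such as CP190 and BEAF-32. How often HMR sat beside tRNA genes, and whether its C-terminus mattered there, was therefore the question asked of the peak lists.

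The sequences on which the tRNA calls rested are given first. Each is the 200 bp window centred on the median midpoint of the peaks at that place (the peaks themselves were 200 bp wide), read from the plus strand of dm6. Capitals mark matches, on either strand, to CGATA (the core bound by the insulator protein BEAF-32), TATCGATA (the DRE bound by DREF, which contains CGATA), GGTCACACT (the core bound by M1BP), TGCATA (a core within the Su(Hw) site), GAGAG (bound by GAGA factor) or GTTCNANTC (the B box). The first 4 windows were called with both antibodies and both constructs.
tRNA:Phe-GAA-1-2 peak at chrX:6744264-6744463, plus strand: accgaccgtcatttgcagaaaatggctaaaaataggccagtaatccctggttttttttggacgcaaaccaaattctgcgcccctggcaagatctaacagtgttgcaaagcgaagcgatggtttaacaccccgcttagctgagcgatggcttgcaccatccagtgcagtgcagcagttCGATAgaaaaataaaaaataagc
tRNA:Pro-CGG-2-2 peak at chr3L:17339255-17339454, plus strand: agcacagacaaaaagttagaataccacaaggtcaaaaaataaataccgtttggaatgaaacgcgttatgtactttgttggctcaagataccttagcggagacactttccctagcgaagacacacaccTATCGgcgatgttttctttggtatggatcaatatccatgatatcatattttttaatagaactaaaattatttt
tRNA:Gln-CTG-2-3 peak at chr2L:2009690-2009889, plus strand: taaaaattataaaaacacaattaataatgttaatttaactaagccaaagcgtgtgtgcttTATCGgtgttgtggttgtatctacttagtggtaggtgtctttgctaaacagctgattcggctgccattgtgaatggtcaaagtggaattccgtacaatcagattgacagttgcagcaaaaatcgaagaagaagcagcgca
tRNA:Thr-AGT-1-4 peak at chr3R:16431717-16431916, plus strand: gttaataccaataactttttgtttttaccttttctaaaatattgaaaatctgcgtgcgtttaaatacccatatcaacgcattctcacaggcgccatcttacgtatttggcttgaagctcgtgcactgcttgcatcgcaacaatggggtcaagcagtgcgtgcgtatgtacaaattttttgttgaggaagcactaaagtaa
The next 3 windows are shown because the antibodies or constructs gave different calls there.
tRNA:Pro-CGG-2-1 peak at chrX:18565880-18566079, plus strand: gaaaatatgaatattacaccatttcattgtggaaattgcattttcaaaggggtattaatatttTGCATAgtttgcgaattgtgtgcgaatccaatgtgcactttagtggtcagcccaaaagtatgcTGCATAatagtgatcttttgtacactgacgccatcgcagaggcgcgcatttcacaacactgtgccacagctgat
tRNA:Arg-TCG-2-4 peak at chr3R:8863293-8863492, plus strand: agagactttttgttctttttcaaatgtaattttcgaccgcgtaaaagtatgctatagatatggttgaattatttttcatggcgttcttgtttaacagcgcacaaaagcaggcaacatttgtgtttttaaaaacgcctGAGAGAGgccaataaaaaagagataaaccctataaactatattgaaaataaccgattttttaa
tRNA:Cys-GCA-2-1 peak at chr3L:1926067-1926266, plus strand: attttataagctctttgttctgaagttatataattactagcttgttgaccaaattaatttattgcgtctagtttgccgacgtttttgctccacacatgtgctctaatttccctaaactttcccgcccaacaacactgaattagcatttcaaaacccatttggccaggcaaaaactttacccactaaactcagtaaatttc
The gene beside the first of these 3 windows, with the B box in capitals, stands for what a tRNA gene itself looks like.
tRNA:Pro-CGG-2-1 gene at chrX:18565764-18565835, plus strand: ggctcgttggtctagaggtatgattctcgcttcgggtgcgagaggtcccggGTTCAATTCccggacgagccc
CGATA or its reverse complement TATCG was present beside tRNA:Phe-GAA-1-2, tRNA:Pro-CGG-2-2 and tRNA:Gln-CTG-2-3, the window beside tRNA:Pro-CGG-2-1 held TGCATA on 2 occasions, and none of the 7 windows held a B box.

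Most tRNA genes had no HMR peak nearby in any library. Of the 290 genes, 233 (80.3%) were called in none of the 18 lists and 57 (19.7%) in at least 1, where 43.0% of 13968 protein-coding genes had a start called in at least 1 list and 11.1% of all positions on the 5 large chromosome arms were. Of the 57, 30 were called in exactly 1 list, and 23 of these only in replicate 3 of the anti-HMR HMRwt-tg libraries, whose list was the longest with 9049 peaks. The remaining 27 genes, at 22 loci, were called in 2 or more lists. Of these, 20 genes at 16 loci were called in at least 9 lists, and 1 gene, tRNA:Phe-GAA-1-2, in all 18. A locus here joins tRNA genes that lie at most 500 bp apart, which made 196 loci of the 290 genes.

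With anti-FLAG, 17 tRNA genes at 13 loci (5.86%) were called in at least 5 of the 10 lists. The same rule called 19.8% of protein-coding genes at a start and 2.13% of positions. With anti-HMR, 17 tRNA genes at 15 loci (5.86%) were called in at least 4 of the 8 lists, against 13.8% of protein-coding genes and 1.91% of positions. The antibodies shared 11 of these genes, which is 11 of 17 for either antibody. The overlap over all genes is not given here, so that this count is a description only. tRNA genes thus stood above the genome at large and below protein-coding starts.

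The number of tRNA genes called followed the length of the list. With anti-FLAG, the HMRwt-tg libraries called 14, 3, 18, 26 and 15 tRNA genes in lists of 2354, 465, 2457, 4427 and 2532 peaks (replicates 1 to 5). The HMRdC-tg libraries called 19, 15, 17, 20 and 7 in lists of 3096, 1784, 1894, 2624 and 1093 peaks. With anti-HMR, the HMRwt-tg libraries called 19, 7, 49 and 11 in lists of 2858, 1150, 9049 and 1496 peaks, and the HMRdC-tg libraries called 21, 13, 7 and 17 in lists of 3184, 1640, 1958 and 2066 peaks. In each group the fewest calls came from the shortest list, except for anti-HMR HMRdC-tg, where replicate 3 called 7 genes with 1958 peaks. The 95% Wilson interval for a single library, which covers counting error only, ran for example from 2.90% to 7.94% for the 14 of 290 genes of the first anti-FLAG HMRwt-tg library.

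Within each library, tRNA genes were called more often than positions of the same chromosomes. With anti-FLAG, 5.31% ± 2.25 (SD, n = 10) of tRNA genes were called against 2.12% ± 1.01 of positions, a difference of 3.19 percentage points that was above 0 in 10 of 10 libraries (exact sign-flip permutation test, two-sided, p = 0.00195, the smallest 10 libraries allow). With anti-HMR, 6.21% ± 4.68 (SD, n = 8) were called against 2.77% ± 2.49 of positions, a difference of 3.44 points in 8 of 8 libraries (exact sign-flip permutation test, p = 0.00781, the smallest 8 libraries allow). Protein-coding genes were called far more often, at 18.9% ± 8.69 with anti-FLAG and 14.9% ± 9.77 with anti-HMR. The tRNA genes differed from them by -13.6 and -8.67 points (exact sign-flip permutation tests, p = 0.00195, n = 10, and p = 0.00781, n = 8), in every library. These tests measure the spread between libraries, and the same few loci were called in most of them.

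**Figure D1:**
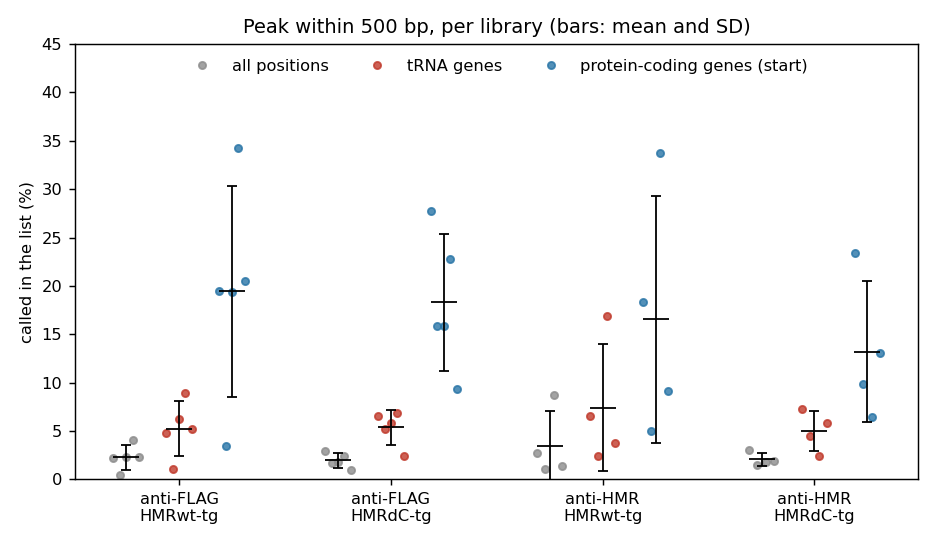
Percentage of nuclear tRNA genes, of all positions and of protein-coding starts with a peak within 500 bp (y axis), for each library (points) in the 4 groups, with mean and SD as black bars. tRNA genes sit between 1.03% and 8.97% in the 10 anti-FLAG libraries, above the positions and below the protein-coding starts of the same library.

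The truncated protein was found at as many tRNA genes as the full-length protein within the spread of the libraries. With anti-FLAG, 5.24% ± 2.86 (SD, n = 5) of tRNA genes were called for HMRwt-tg and 5.38% ± 1.79 for HMRdC-tg (exact permutation test, two-sided, p = 0.968). The HMRdC-tg values lay within the range of the HMRwt-tg values. With anti-HMR, the values were 7.41% ± 6.55 and 5.00% ± 2.06 (n = 4 each, exact permutation test, p = 0.743). The share of all peaks that lay within 500 bp of a tRNA gene, which takes list length into account, was 0.513% ± 0.0792 for HMRwt-tg and 0.546% ± 0.0649 for HMRdC-tg with anti-FLAG (exact permutation test, n = 5 each, p = 0.532). It was 0.553% ± 0.126 and 0.565% ± 0.132 with anti-HMR (exact permutation test, n = 4 each, p = 0.857). The smallest p-values these designs allow are 0.00794 and 0.0286.

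Relative to positions, tRNA genes were called 2.35 ± 0.230 fold as often in HMRwt-tg and 2.78 ± 0.457 fold as often in HMRdC-tg with anti-FLAG (exact permutation test, n = 5 each, p = 0.0952). With 1000 bp allowed between peak and gene this difference rose from 0.431 to 0.630 and passed the threshold (exact permutation test, p = 0.00794), and it also passed without replicate 1 of HMRdC-tg (0.559, exact permutation test, p = 0.0397). With anti-HMR the folds were 2.33 and 2.44 on average (exact permutation test, n = 4 each, p = 0.83). Fisher's exact test for each of 18277 genes called 0 between the constructs with either antibody after Benjamini-Hochberg adjustment (0% of all genes in both cases). At an unadjusted p under 0.05 it called 41 genes with anti-FLAG, of which 1 was a tRNA gene, and 0 genes with anti-HMR. Fisher's exact test cannot go below p = 0.00794 with 5 against 5 lists or p = 0.0286 with 4 against 4. After adjustment over 18277 genes, a gene at that value passes only if enough other genes reach it too. The 0 adjusted calls therefore do not show that the constructs were alike at single genes. No tRNA gene was called in all 5 lists of one construct and none of the other.

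tRNA genes beside a protein-coding start were called most often. A coding start lay within 500 bp of 33 tRNA genes (11.4%, against 12.2% of positions), and 257 had none. With anti-FLAG, 19.7% ± 7.59 (SD, n = 10) of the 33 were called and 3.46% ± 1.73 of the 257, a difference of 16.2 points in 10 of 10 libraries (exact sign-flip permutation test, p = 0.00195). With anti-HMR, the values were 15.2% ± 9.72 and 5.06% ± 4.18 (n = 8), a difference of 10.1 points in 8 of 8 libraries (exact sign-flip permutation test, p = 0.00781). Of the 33, 7 (21.2%) were called in at least 5 anti-FLAG lists and 5 (15.2%) in at least 4 anti-HMR lists, while 21 were called in no list. Of the 257, 10 (3.89%) and 12 (4.67%) were called by these rules and 212 in no list. The rate of the 33 differed from that of protein-coding starts by 0.835 ± 4.75 points with anti-FLAG and 0.276 ± 3.08 points with anti-HMR, less than the spread between libraries. The measures are not alike. A coding gene counted with a peak within 500 bp of any of its transcript starts, and a tRNA gene with a peak within 500 bp of itself. Close rates therefore do not show that these tRNA genes behave as coding starts do.

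A position near a coding start is itself more likely to be near a peak, so both kinds of tRNA gene were compared with positions of the same kind. Beside a coding start, 12.5% ± 5.94 of positions were called with anti-FLAG, 7.17 points less than for tRNA genes (10 of 10 libraries, exact sign-flip permutation test, p = 0.00195), and 10.5% ± 7.26 with anti-HMR, 4.62 points less (7 of 8 libraries, exact sign-flip permutation test, p = 0.0156). Away from coding starts, 0.636% ± 0.323 of positions were called with anti-FLAG. The tRNA genes there exceeded this by 2.83 points, or 5.56 ± 1.51 fold, in 10 of 10 libraries (exact sign-flip permutation test, p = 0.00195). With anti-HMR, positions stood at 1.67% ± 1.90 and tRNA genes exceeded them by 3.39 points, or 3.59 ± 1.39 fold, in 8 of 8 libraries (exact sign-flip permutation test, p = 0.00781). The same genes entered every library, so these p-values measure the spread between libraries and not between genes. Of the 33 genes beside a coding start, 7 were called in at least 5 anti-FLAG lists and 5 in at least 4 anti-HMR lists. This comparison was added after the data had been seen.

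**Figure D2:**
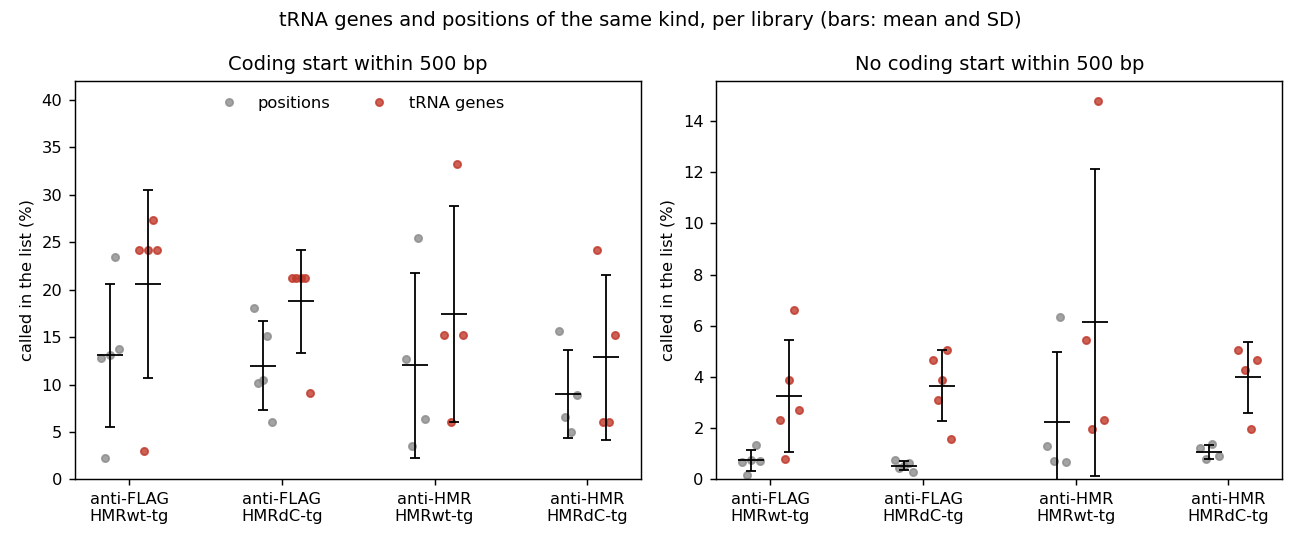
Percentage called per library (points, with mean and SD as black bars) among tRNA genes and among positions of the same kind. The left panel has the 33 tRNA genes with a coding start within 500 bp and the right panel the 257 without, on different y axes. In the right panel tRNA genes average 3.46% with anti-FLAG against 0.636% of positions.

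The excess away from coding starts rested on few places. Of the 186 tRNA genes with no coding start within 1500 bp, 5 genes at 4 loci were called in at least 5 anti-FLAG lists and 7 genes at 6 loci in at least 4 anti-HMR lists. Counting only the first gene of each locus, 1.59% ± 1.12 of these were called with anti-FLAG against 0.414% ± 0.225 of positions (n = 10 libraries, above 0 in 8 of them, exact sign-flip permutation test, p = 0.0117). With anti-HMR the values were 4.96% ± 3.54 and 1.45% ± 1.81 (n = 8, exact sign-flip permutation test, p = 0.00781).

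Most peak regions near tRNA genes lay beside the gene. The peaks called in 2 or more lists formed 20 regions near tRNA genes, and 3 of the 20 overlapped a tRNA gene. The median distance from the middle of a region to the nearest tRNA gene was 261 bp, with a range from 108 to 591 bp. The middle lay upstream of the tRNA start in 9 regions and downstream in 11. It was nearer to a coding start than to the tRNA gene in 7 regions and nearer to the tRNA gene in 13, and 11 regions were within 500 bp of a coding start. The regions were chosen for lying within 500 bp of a tRNA gene. Most placements of a 200 bp peak in such a window do not overlap a gene of 73 bp. These counts and distances therefore do not show that peaks avoid the genes. When a peak had to overlap the gene, tRNA genes were called less often than positions, with differences of -0.325 points for anti-FLAG (exact sign-flip permutation test, n = 10, p = 0.00781) and -0.220 points for anti-HMR (exact sign-flip permutation test, n = 8, p = 0.0469). For 238 of the 290 genes, no 50 bp stretch of the gene occurs once in the genome. This comparison was not repeated on genes of unique sequence, and the part of repeated sequence in it was not tested.

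Most tRNA genes are themselves repeated sequence. Of the 290 tRNA genes, 238 held no 50 bp stretch, the read length, that occurs once in the genome, and reads were filtered on mapping quality. In the windows of 500 bp on each side the median share of unique stretches was 96.2%, with 96.0% for genes never called and 95.2% for the 17 genes called in at least 5 anti-FLAG lists. Unique stretches were under 50% in the windows of 5 genes.

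**Figure D3:**
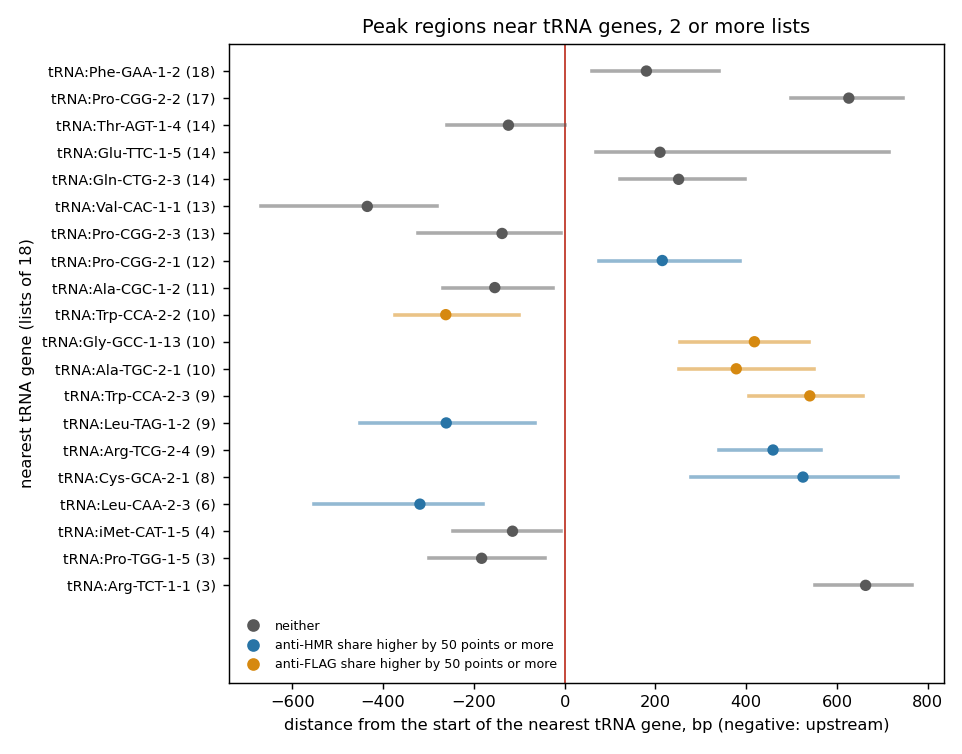
Position of the 20 peak regions called in 2 or more lists relative to the nearest tRNA gene, in bp from its start along its own strand (negative is upstream). Points are median midpoints, lines span the region, colours mark regions whose share of lists differed by 50 points or more between antibodies, and the list count out of 18 stands beside each name; midpoints lie 108 to 591 bp from the gene.

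The most often called tRNA gene was tRNA:Phe-GAA-1-2, a phenylalanine tRNA gene on the minus strand of X at 6744471 to 6744543. It was called in 5 of 5 anti-FLAG lists of each construct and in 4 of 4 anti-HMR lists of each. Its peak region, 6744202 to 6744483, had its middle 125 bp from a start of RpL17, which encodes a protein of the large ribosomal subunit, and 108 bp from the tRNA gene. A peak overlapped the tRNA gene itself in 4 lists. tRNA:Pro-CGG-2-2 on 3L (17339909 to 17339980, minus strand) followed with 5 of 5 and 5 of 5 anti-FLAG lists and with 4 of 4 HMRwt-tg and 3 of 4 HMRdC-tg anti-HMR lists. Its region, 17339234 to 17339481, was centred 92 bp from a start of CG6479 and 555 bp from the tRNA gene, so that the call was lost when only 250 bp was allowed.

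tRNA:Gln-CTG-2-3 on 2L (2009538 to 2009609) was called in 4 and 5 of 5 anti-FLAG lists of HMRwt-tg and HMRdC-tg and in 3 and 2 of 4 anti-HMR lists. The region, 2009660 to 2009935, was centred 70 bp from a start of CG4238. tRNA:Thr-AGT-1-4 on 3R (16431940 to 16432013) had the same counts, and its region, 16431681 to 16431941, lay in CG31279, 381 bp from a coding start. tRNA:Pro-CGG-2-3 on 3L (18618390 to 18618461) was called in 4 and 4 of 5 anti-FLAG lists and 3 and 2 of 4 anti-HMR lists, with its region 309 bp from a start of CG13380. The lists that lacked these 3 genes were replicate 2 of both HMRwt-tg groups, replicates 2 and 3 of anti-HMR HMRdC-tg and, for tRNA:Pro-CGG-2-3, replicate 5 of anti-FLAG HMRdC-tg.

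Other loci were called at genes with no coding start within 500 bp. tRNA:Glu-TTC-1-5 on 2R (19727460 to 19727531) lay 13384 bp from the nearest one and was called in 3 and 4 of 5 anti-FLAG and in 4 and 3 of 4 anti-HMR lists. tRNA:Ala-CGC-1-1, 1-2 and 1-3, 3 copies of one alanine tRNA sequence within the gene gol on 2R, shared 1 region (25076496 to 25076740) that was called in 2 and 4 of 5 anti-FLAG and 2 and 3 of 4 anti-HMR lists. tRNA:Val-CAC-1-1 on 3R (17617761 to 17617833) was called in 4 and 5 of 5 anti-FLAG and 1 and 3 of 4 anti-HMR lists, with its region 1473 bp from a start of CG14324. tRNA:Ala-TGC-2-1 on 2R was called in 5 and 3 of 5 anti-FLAG and in 2 and 0 of 4 anti-HMR lists. None of these passed Fisher's exact test between constructs, with adjusted p = 1.00 for each. With so few lists, that adjusted test does not show that the constructs were alike there. With only 250 bp allowed, tRNA:Val-CAC-1-1 and tRNA:Ala-CGC-1-1 were called in 0 lists, tRNA:Glu-TTC-1-5 in 9, tRNA:Ala-CGC-1-2 in 11 and tRNA:Ala-TGC-2-1 in 8.

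**Figure D4:**
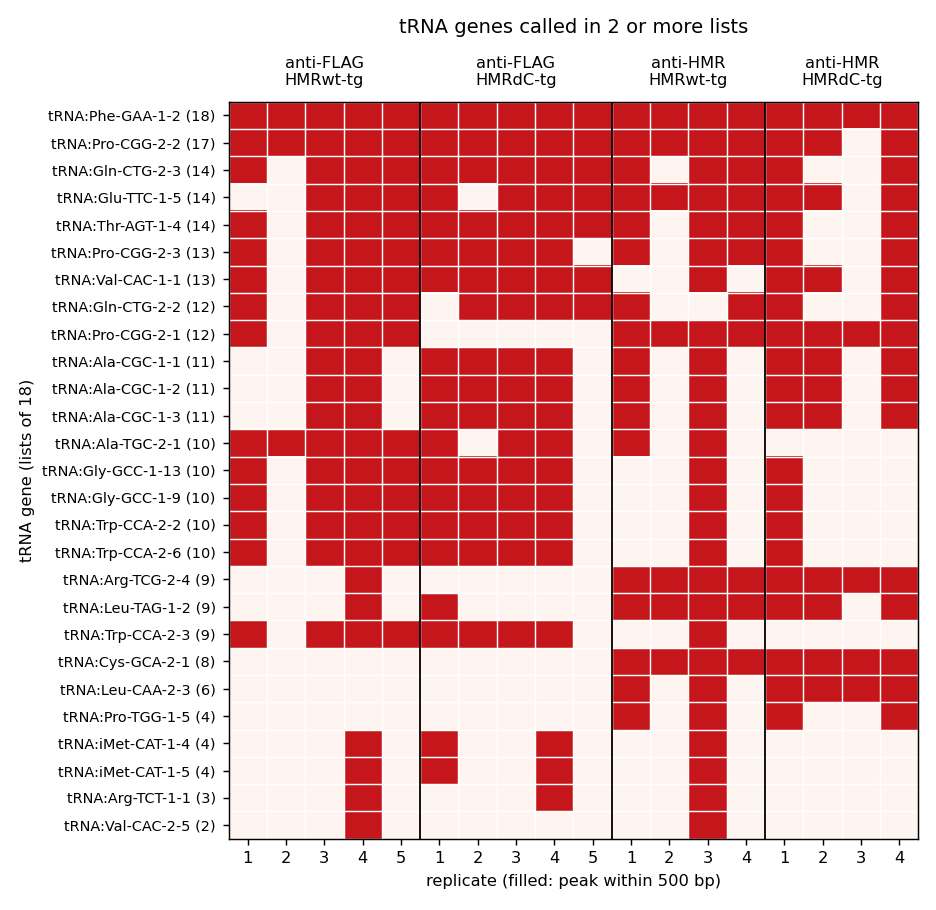
The 27 tRNA genes called in 2 or more lists (rows, with the count of 18 lists) by library (columns, numbered within each group), where a filled cell is a peak within 500 bp. tRNA:Phe-GAA-1-2 is filled in 18 of 18 columns, tRNA:Cys-GCA-2-1 in the 8 anti-HMR columns only, and tRNA:Pro-CGG-2-1 in none of the 5 anti-FLAG HMRdC-tg columns.

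The single tRNA gene with a difference of 3 or more anti-FLAG lists between constructs was tRNA:Pro-CGG-2-1 on X (18565764 to 18565835), within Bx, which encodes a LIM-domain cofactor. It was called in 4 of 5 HMRwt-tg and 0 of 5 HMRdC-tg anti-FLAG lists. With anti-HMR it was called in 4 of 4 lists of both constructs. Fisher's exact test gave p = 0.0476 for anti-FLAG, with adjusted p = 1.00 over all genes, so that the difference did not pass. With 5 against 5 lists, even a full separation would pass only if many other genes had as small a p-value. At an unadjusted p under 0.05, the same test called 41 of all 18277 genes. Its region, 18565839 to 18566151, did not overlap the gene and was centred 327 bp from a coding start of Bx.

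Overall counts did not separate the antibodies, while single genes went in both directions. Over the 8 chromatins with both antibodies, anti-HMR called 0.517 ± 3.63 percentage points more tRNA genes than anti-FLAG, with 4 of 8 chromatins above 0 (exact sign-flip permutation test, p = 0.750). The share of peaks near tRNA genes differed by 0.0249 points (exact sign-flip permutation test, n = 8, p = 0.469), and this difference did not vary with the construct beyond the spread (exact permutation test, 4 against 4 chromatins, p = 0.943). When every list was reduced to the length of the shortest list of its antibody, anti-HMR called 1.72 points more (exact sign-flip permutation test, n = 8, p = 0.00781), but the shortest lists differ in length between antibodies, 1150 against 465 peaks. Shortening kept the first peaks of each list, and the files do not say whether line order follows peak strength.

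A peak beside tRNA:Cys-GCA-2-1 on 3L (1925641 to 1925712, in the homeobox gene Dbx) was found in 8 of 8 anti-HMR lists and 0 of 10 anti-FLAG lists. It was the 1 tRNA gene that passed Fisher's exact test between antibodies, with p = 2.29e-05 and adjusted p = 0.0119 over all 18277 genes (a test added after the data had been seen). That test called 0.525% of all genes more often with anti-HMR and 0% more often with anti-FLAG, and at an unadjusted p under 0.05 it called 7 tRNA genes (2.41%) against 757 of all genes (4.14%). It treats the libraries as independent although 8 chromatins are shared. Without the 2 anti-FLAG libraries made with another library kit, the counts at tRNA:Cys-GCA-2-1 were still fully separated, at 8 of 8 against 0 of 8 lists. No gene of the 18277 passed there. Fisher's exact test of 8 against 8 lists cannot go below p = 1.55e-04, and after adjustment a gene at that value passes only if enough other genes reach it too. Whether this loss came from the smaller number of lists or from the kit was not tested. The region beside it, 1925919 to 1926376, was centred 454 bp from the tRNA gene and 4859 bp from the nearest coding start. With only 250 bp allowed, the gene was called in 4 of the 18 lists, so that its call depended on the distance chosen.

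tRNA:Arg-TCG-2-4 on 3R (8862933 to 8863005, in pyd, which encodes a ZO-1-type junction protein) was called in 8 of 8 anti-HMR lists and 1 of 10 anti-FLAG lists, with adjusted p = 0.0578 by Fisher's exact test. Its region, 8863273 to 8863498, was centred 141 bp from a start of pyd. tRNA:Leu-CAA-2-3 was called in 6 of 8 anti-HMR and 0 of 10 anti-FLAG lists (Fisher's exact test, adjusted p = 0.145), and tRNA:Leu-TAG-1-2 in 7 of 8 and 2 of 10 (Fisher's exact test, adjusted p = 0.647). tRNA:Pro-CGG-2-1 was called in 8 of 8 and 4 of 10 (Fisher's exact test, adjusted p = 0.596). All 4 of those anti-FLAG lists were of HMRwt-tg, so that most of this gap lay in the HMRdC-tg libraries. These 4 genes did not pass, although tRNA:Arg-TCG-2-4 did with 1000 bp allowed, with shortened lists and without replicate 4 of anti-FLAG HMRwt-tg. With only 250 bp allowed, tRNA:Arg-TCG-2-4 was called in 0 lists. At that distance tRNA:Leu-CAA-2-3 was called in 4 lists, tRNA:Leu-TAG-1-2 in 8 and tRNA:Pro-CGG-2-1 in 12.

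In the other direction, 6 tRNA genes at 4 loci, all on 2R, were called in a share of anti-FLAG lists at least 50 points above that of anti-HMR lists. The share of all genes that meet this rule is not given here. Tryptophan and glycine tRNA genes made up 3 of the loci. tRNA:Trp-CCA-2-3 was called in 8 of 10 anti-FLAG and 1 of 8 anti-HMR lists (Fisher's exact test, adjusted p = 0.647). tRNA:Trp-CCA-2-2 with tRNA:Gly-GCC-1-9, and tRNA:Trp-CCA-2-6 with tRNA:Gly-GCC-1-13, were called in 8 of 10 and 2 of 8 lists (Fisher's exact test, adjusted p = 1.00). Their regions were centred 49, 25 and 48 bp from starts of CG30389, CG30122 and tud. tRNA:Ala-TGC-2-1 was the other gene, with 8 of 10 and 2 of 8 lists (Fisher's exact test, adjusted p = 1.00), and its region was 2000 bp from the nearest coding start. None of these genes passed the test. With only 250 bp allowed, tRNA:Trp-CCA-2-3, tRNA:Trp-CCA-2-6 and tRNA:Gly-GCC-1-9 were called in 0 lists, tRNA:Trp-CCA-2-2 in 10 and tRNA:Ala-TGC-2-1 in 8. tRNA:Gly-GCC-1-13 falls outside the naming rule and is named because it shares its locus.

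By the main measure, the difference in rate between tRNA genes in clusters and single ones did not pass the threshold with either antibody. In clusters of at least 3 genes with gaps of at most 2 kb (126 genes), 6.11% ± 2.83 were called with anti-FLAG against 4.67% ± 1.26 of the 90 single genes (n = 10 libraries, 1.44 points, above 0 in 6 of 10, exact sign-flip permutation test, p = 0.0664). With anti-HMR, 5.46% ± 5.73 were called in clusters against 8.06% ± 2.64 of single genes (n = 8, a difference of -2.60 points, above 0 in 1 of 8, exact sign-flip permutation test, p = 0.0703). The anti-FLAG difference turned to -1.30 points at a distance of 250 bp (exact sign-flip permutation test, n = 10, p = 0.00195) and grew to 5.62 points at 1000 bp (exact sign-flip permutation test, n = 10, p = 0.00391). Genes of a cluster were counted singly although 1 peak region can call several of them, as with tRNA:Gln-CTG-2-2 and tRNA:Gln-CTG-2-3. The part of such sharing in these values was not tested.

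Of the 43 genes in clusters of at least 5, 37 (86.0%) were called in no list, beside 80.3% of all tRNA genes. Of 7 such clusters, 4 had no called gene in any list: 5 genes on 2R (6161535 to 6162753), 6 on 3L (3095737 to 3097590), 6 on 3R (8139533 to 8141042) and 7 on X (14014814 to 14017284). These hold arginine, asparagine, lysine, cysteine and serine tRNA genes. A cluster of 7 genes on 2R (13430282 to 13432794) had 3 genes called in 1 list each at most. In the 2 others, 1 gene was called often, tRNA:Glu-TTC-1-5 in 14 lists within 7 genes on 2R (19725620 to 19728958) and tRNA:Val-CAC-1-1 in 13 lists at the edge of 5 genes on 3R (17617761 to 17620216).

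For several tRNA sequences, 1 or more copies were called and others were not. The 290 genes had 95 different sequences, of which 43 occurred more than once and together made up 238 genes. A copy was called in 2 or more lists for 13 of the 43, and for 11 of these 13 another copy was called in no list. As 80.3% of all tRNA genes were called in no list, an uncalled copy is likely in any family of several copies. These counts were not tested against that share. Of the 8 copies of the tRNA:Phe-GAA-1-2 sequence, 1 was called in 18 lists and 7 in none, and of 7 copies of the tRNA:Thr-AGT-1-4 sequence, 1 was called in 14 lists and 6 in none. The 3 copies of the tRNA:Pro-CGG-2 sequence were the exception on separate chromosome regions, with 17, 13 and 12 lists, although their peaks lay at 3 different protein-coding genes (CG6479, CG13380 and Bx). The other sequence with every copy called was tRNA:Ala-CGC-1, whose 3 copies shared 1 region.

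The windows at tRNA genes were described by short motifs. CGATA was present in 6 of the 20 windows (30.0%), against 53.9% of 2299 windows of the same width at all regions called in at least 5 anti-FLAG lists and 21.3% of 661521 windows that tile the chromosome arms. TATCGATA was present in 2 of 20 windows, against 13.7% and 0.546%. GGTCACACT was in 0 of 20, against 11.0% and 0.201%, TGCATA in 3, against 10.7% and 12.4%, and GAGAG in 3, against 14.5% and 21.4%. The B box letters GTTCNANTC were in 1 of 20 windows, against 3.74% and 1.93%, and in 197 of the 290 tRNA genes on their own strand. The 2 sets of called regions followed unlike rules. The 20 windows lay at regions called in 2 or more lists of either antibody, and some of these had no anti-FLAG list. All 6 windows with CGATA, which include the 2 with TATCGATA, lay at regions called in at least 5 anti-FLAG lists. The 20 and the 2299 are therefore not compared like for like, and with 20 windows these shares are a description only.

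The other genes of the RNA polymerase III system were looked up by list. Of 106 other polymerase III genes, 96 are 5S rRNA genes of one tandem array, and 4 of the 106 (3.77%) were called in any list, where 19.7% of tRNA genes were. All 96 genes of the array were called in no list, and the 4 called genes were among the few others. The low share thus rests on the array. How much of its sequence is unique was not measured, so the share does not show that polymerase III genes were called less often than tRNA genes. The neighbouring U6 snRNA genes snRNA:U6:96Ab and snRNA:U6:96Ac were called in 9 of 10 anti-FLAG and 5 of 8 anti-HMR lists, and 7SLRNA:CR32864 and snRNA:7SKa in at most 1 list per antibody. Of 16 genes for the transcription machinery, 9 (56.2%) had a start called in any list, beside 43.0% of all protein-coding genes. By the stricter rules, 2 of the 16 were called in at least 5 anti-FLAG lists and 2 in at least 4 anti-HMR lists. The same rules called 19.8% and 13.8% of all protein-coding genes, and these counts were not tested against those shares. Polr3A, Polr3B, Polr3C, Polr3D, Polr3I and Polr3K were among the machinery genes called in no list. Maf1, which encodes a repressor of the polymerase, was called in 8 of 10 anti-FLAG and 8 of 8 anti-HMR lists, and Tbp, the TATA-binding protein, in 7 of 10 and 1 of 8. Bdp1, Brf and Trf, which encode subunits of TFIIIB, were called in 1, 2 and 2 of 10 anti-FLAG lists and in 4, 2 and 1 of 8 anti-HMR lists.

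The genes that charge tRNAs were looked up in the same way. Of 20 genes for cytosolic aminoacyl-tRNA synthetases, 14 (70.0%, beside the same 43.0%) were called at a start in any list, 7 in at least 5 anti-FLAG lists and 5 in at least 4 anti-HMR lists. GluProRS and beta-PheRS were called in 10 of 10 anti-FLAG and 7 of 8 anti-HMR lists, HisRS in 10 and 6, GlnRS in 9 and 5, and ThrRS in 8 and 7. LysRS was called in 9 and 3 lists and TrpRS in 5 and 1. The counts of 7 and 5 of 20 stand beside the 19.8% and 13.8% of all protein-coding genes given above, and neither was tested.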

How the data were processed

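Chromatin of induced SL2 cells was immunoprecipitated with anti-FLAG (10 libraries) or anti-HMR (8 libraries), and 10 input libraries accompany them. Per the labels and the study's methods, the authors used dm6 as the build, Bowtie2 2.2.9 for alignment, SAMtools 1.3.1 to filter on mapping quality, and HOMER 4.9 in its factor style, at a fixed peak width, to call the peaks of each library separately. The deposited lists hold chromosome, start and end, with no score or signal; read depth is therefore unknown here, and presence of a peak is the only measure. All but 1 of 46127 peaks were 200 bp wide. No list was sorted by position, and list order, whose meaning the files do not state, was used only to shorten lists in an alternative. Inputs were not analysed here. 2 anti-FLAG libraries, replicate 5 of each construct, were made with the NEBNext kit and the rest with Microplex.

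tRNA genes, coding starts and other genes came from Ensembl release 115 (BDGP6.54, dm6 coordinates) and sequences from the RefSeq dm6 assembly. For each list, the exact share of all positions of the same chromosome where a gene of equal length would be called served as background. Libraries were the units of exact two-sided permutation tests (constructs, chromatin pairs, sign flips within libraries), with a threshold of 0.05. Fisher's exact test per gene was adjusted (Benjamini-Hochberg) over 18277 genes. Programs were tested on simulated data (Python 3.11.15, numpy 2.4.6, scipy 1.17.1, pandas 2.3.3, matplotlib 3.10.9). Replicate numbers only name libraries. Anti-HMR and anti-FLAG libraries were paired by the input they share in the labels, which is the same chromatin, and the constructs share no chromatin.

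The named genes were the 10 loci called in the most lists, up to 5 genes per direction that differed by at least 3 anti-FLAG lists between constructs or by at least 50 points between antibodies, clusters of at least 5 genes, and the families with the most and least called copies. Members, lists and tests were chosen with earlier results of these data known.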

Additional observations from a re-analysis of the deposited data

Results flagged for a closer look

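Some libraries stood apart from the others of their group in 5 of 32 sets of values screened with Dixon's test, where chance flags about 1 in 20 if values are not tied. Among tRNA genes beside a coding start, replicate 2 of anti-FLAG HMRwt-tg called 3.03%, against 24.2% to 27.3% in the other 4 libraries, and replicate 5 of anti-FLAG HMRdC-tg called 9.09%, against 21.2% in each of the other 4. Among single tRNA genes, the same libraries called 2.22%, against 5.56% to 6.67%, and 3.33%, against 4.44%. The 3.33% is 3 of 90 genes, against 4 of 90 in each other library of that group. Where the other libraries tie, as for the 3.33% and the 9.09%, Dixon's statistic is 1.00 whatever the size of the difference. Among clustered tRNA genes, replicate 5 of anti-FLAG HMRdC-tg called 3.17%, against 7.14% to 7.94%. These libraries had the shortest lists of their groups, with 465 and 1093 peaks, and the part of list length in these values was not tested.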

How the results depend on the processing

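Over 414 recomputed values of 24 results, 374 stayed on their side of the threshold. Of these 374, 332 kept their direction and 42 had the other sign or were 0, all in 11 construct, antibody and cluster differences that did not pass to begin with. In 14 cases the value passed where the main value did not, in 2 it no longer passed, in 4 it reversed, and 20 were counts from Fisher's test between antibodies that rose (3) or fell (17) by over 1.5 times. When a peak had to overlap the gene, the tRNA difference from positions reversed to -0.325 (anti-FLAG) and -0.220 points (anti-HMR), and the difference between tRNA genes near to and away from a coding start was 0.528 and 0.845 points (exact sign-flip permutation tests, p = 0.50 for both). The cluster difference was unstable. With anti-FLAG it reversed to -1.30 points at 250 bp and to -1.52 with shortened lists, and passed the threshold at 5.62 with 1000 bp, 1.82 with genes in mostly unique windows, 3.82 away from coding starts and 1.85 without the shortest and the longest list. With anti-HMR it passed at -3.89 (250 bp), -3.06 (shortened lists), -4.56 (gap of 5 kb) and -3.67 (without the shortest and the longest list). The construct difference in fold over positions passed with anti-FLAG at 0.630 (1000 bp), and the antibody difference at 1.72 points (shortened lists). Shortened lists keep the first lines of each list, which is a choice of the strongest peaks only if line order follows peak strength, and the files do not say so. The causes were not tested.

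Leaving out 1 library at a time gave 1.22 to 1.85 points for the anti-FLAG cluster difference, which passed without replicate 1 (1.69) or 2 (1.85) of HMRwt-tg, and -3.67 to -2.02 for anti-HMR, which passed without replicate 3 of HMRwt-tg (-3.67). The anti-FLAG fold difference ran from 0.292 to 0.559. Fisher's test between antibodies called 96 genes, 167 at 1000 bp, 287 with shortened lists, 0 without the NEBNext libraries (where 8 against 8 lists cannot reach a smaller p than 1.55e-04) and 35 to 157 without 1 library, and tRNA:Cys-GCA-2-1 passed in each of the 18 fits without 1 library. Fisher's test between antibodies, the settings away from coding starts and without the shortest and longest lists, and the comparison with positions of the same kind were chosen after seeing the data.

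Without pairing by chromatin (no replicate block), the antibody difference of 0.517 points had p = 0.852 and that in peak share p = 0.623 (exact permutation tests, 8 against 8). No paired analysis was possible between constructs because the labels give them no shared chromatin or replicate number. Within the Microplex kit, the anti-FLAG construct differences were 0.862 points in tRNA genes called, 0.0216 points in peak share and 0.491 in fold over positions (exact permutation tests, 4 against 4, p = 0.686, 0.743 and 0.114), and the NEBNext kit held 1 library per construct. Counting loci gives no cluster value.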
